A study of Mus musculus with 6 samples.

Results

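Bone marrow neutrophils of mice that had carried LL2 tumors for 3 weeks were compared with bone marrow neutrophils of mice that had carried them for 1 week. LL2 is a Lewis lung carcinoma line, here expressing luciferase, which was injected intravenously so that tumors grew in the lung. The comparison took 4 of the 6 libraries of the series, 2 from one-week LL2 mice and 2 from three-week LL2 mice, and the 12259 of 38887 Ensembl genes that had enough counts to be tested. The other 2 libraries, from naive mice without tumor, gave the tumor-free level of each gene. Ly6G+ cells were selected from bone marrow with magnetic beads in all groups, to over 95% purity according to the labels, and total RNA was sequenced. The methods name purchased C57BL/6N CD45.1+ mice of both sexes and female C57BL/6 CD45.2+ mice, all aged 6–8 weeks, without saying which of them gave these libraries, and the labels number the libraries of a group as replicate mice. The model rests on a single tumor line injected into the blood, and the weeks since injection cannot be told apart from the age of the mice or from any day of processing, since each group was taken at one time.

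Neutrophils form in the bone marrow from granulocyte-monocyte progenitors. Dividing promyelocytes make the primary granule proteins, myelocytes and metamyelocytes make those of the secondary granules, and cells that no longer divide acquire chemokine receptors, Toll-like receptors and the receptor of G-CSF before they leave for the blood. Tumors that release G-CSF and GM-CSF speed this production up, and neutrophils that suppress T cells, which accumulate in late tumor-bearing hosts, are called polymorphonuclear myeloid-derived suppressor cells (PMN-MDSCs). The question of the comparison was what set neutrophils of late tumor-bearing mice apart from those of the early stage.

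Each library held between 11994158 and 14127919 counts, and 3 counts, taken as the limit of detection, corresponded to at most 0.246 CPM, the counts of a gene scaled to a library of 1000000 counts. All levels are given as CPM after scaling by the TMM method, in the order of the replicates, and they are not divided by gene length. Changes are log2 fold changes at 3 weeks over 1 week with their SE, from one edgeR model of all 6 libraries (n = 2 libraries per group). A gene was called when its Benjamini-Hochberg adjusted p was under 0.05. The p-values measure the spread between libraries of a group, which was estimated from 3 groups of 2. The defining markers of neutrophils were abundant in every library. S100a9, a subunit of calprotectin, stood at 75356 and 80428 CPM at 1 week and 74992 and 72305 CPM at 3 weeks, and the collagenase gene Mmp8 at 3267 and 2962 CPM at 1 week and 3569.7 and 3262 CPM at 3 weeks, with neither called (adjusted p = 0.663 and 0.429). Ly6g, the gene of the antigen used for selection, was at 2.14 and 1.27 CPM in the one-week libraries and 1.24 and 0.923 CPM in the three-week libraries, too low for its transcript to check the selection. The second one-week library stood apart from the other 5 in genes of T cells and of the Y chromosome. The T-cell kinase gene Zap70 had 30 counts in it and at most 3 in any other, the T-cell surface genes Cd5 and Thy1 had 29 and 23 counts and at most 2 and 5 in any other, and the Y-linked Ddx3y and Uty had 26 and 7 counts and at most 1 and 2 in any other. All of these were too low to be tested, and their part in the results was not tested. Leaving out any single library gave fewer calls, and leaving out this library gave the fewest.

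Between the weeks 2759 genes were called, which is 22.5% of those tested. At 3 weeks 1586 genes (12.9%) were higher and 1173 (9.57%) were lower, and a change over 5-fold was reached by 88 of the higher and 108 of the lower genes, together 1.6% of all tested. Each comparison was repeated under 16 alternatives of test, scaling, filter, gene set, replicate block and left-out library. With one library of the 6 left out the total lay between 1452, without the second one-week library, and 2742, without the second naive library. With scaling by library size alone the split was 856 higher and 2136 lower, and the median of all tested genes moved from -0.02 to -0.22. Changes are therefore relative to the bulk of the transcriptome. In bulk RNA, fewer cells of a type and less RNA per cell cannot be told apart. Of the 2759 called genes, 2756 had both three-week libraries on the same side of both one-week libraries. Of all tested genes 63.8% were so separated. The calls were made from these same libraries, so the separation describes the called genes and is no further support for them. The first principal component of the 6 libraries, with 44.1% of the variance, placed the three-week libraries at 51.3 and 47.0 and the one-week and naive libraries between -26.2 and -23.1. The second, with 25.8%, separated the one-week libraries at 29.1 and 34.0 from the naive libraries at -39.9 and -25.0.

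With TMM scaling, the direction of the calls went with the level of expression. Among the 100 tested genes with the highest CPM 40 were higher and 10 lower at 3 weeks, and among the 1000 with the highest CPM 354 were higher and 72 lower. Of the 1103 genes under 1 CPM, 65 were called. The counts by level were not repeated with library size alone, where 856 of all tested genes were higher and 2136 lower. The part of the scaling and of the power to call small changes in this pattern was not tested. Summed over the called genes, the CPM came to 45.0% of 1000000 at 1 week and 58.4% at 3 weeks. These are not shares of all scaled counts, since CPM after TMM scaling do not sum to 1000000. Over all tested genes they summed to 933068 and 951620 CPM at 1 week and 1094849 and 1073482 CPM at 3 weeks. Part of the rise therefore comes from the scaling. Among the 10 called genes with the highest CPM were S100a8, Actb, Camp, Ngp, Lyz2, Mmp9, S100a6, Ltf and Anxa2. Of these, Lyz2, Camp, Ltf and Ngp, which encode granule proteins, were lower, and S100a8, Actb, Mmp9, S100a6 and Anxa2 were higher. S100a6 had 3630.3 and 3417 CPM at 1 week and 9164 and 8024 CPM at 3 weeks (log2 fold change 1.29 ± 0.13, adjusted p = 2.48e-05). The calprotectin subunit S100a8 changed by only 0.51 on the log2 scale, but from 147327 and 163573 CPM to 228689 and 214396 CPM. S100a8, Actb, Ngp, Mmp9 and Ltf lost their calls in 2, 6, 3, 4 and 2 of the 16 alternatives, respectively (adjusted p up to 0.153, 0.326, 0.167, 0.176 and 0.0923).

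**Figure D1:**
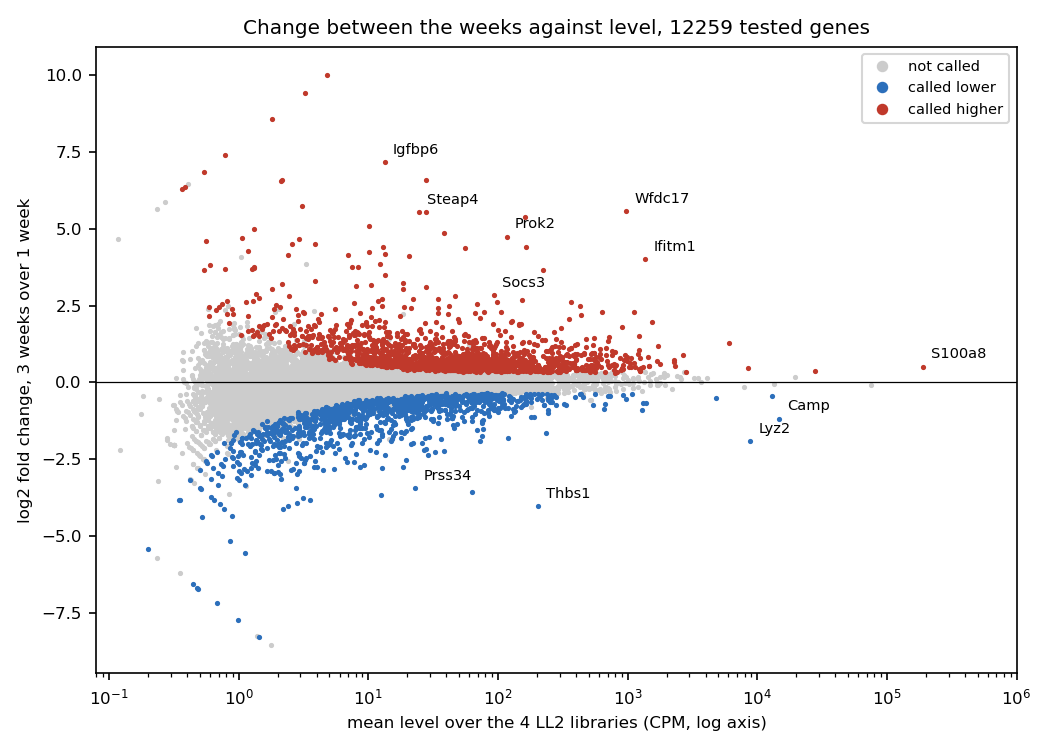
Each point is a tested gene, with its mean level over the 4 libraries in CPM (log axis) against its log2 fold change at 3 weeks over 1 week. Red points are the 1586 genes called higher, blue points the 1173 called lower and grey points the rest, with 354 red and 72 blue among the 1000 genes of highest CPM.

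The largest rise among protein-coding genes with at least 5 CPM was that of Igfbp6 (ENSMUSG00000023046, chromosome 15, 102144362 to 102149511 of GRCm38), which encodes an insulin-like growth factor binding protein. It had 0.0668 and 0.298 CPM at 1 week and 26.7 and 26.5 CPM at 3 weeks (log2 fold change 7.16 ± 0.46, adjusted p = 4.85e-07). Both one-week libraries were near the limit of detection, and the naive libraries, at 0.0791 and 0.819 CPM, lay with them. Wfdc17, a small secreted protein with a whey acidic protein domain (ENSMUSG00000069792, chromosome 11, 83703991 to 83706268), went from 29.4 and 51.7 CPM to 2062 and 1748 CPM, a rise of 47.1-fold (log2 fold change 5.56 ± 0.37, adjusted p = 5.97e-07). Its CPM at 3 weeks was the highest among the 12 genes with the largest rises, and the naive libraries had 34.3 and 86 CPM. Lipg, the endothelial lipase gene, had 0.334 and 0.82 CPM and then 72.4 and 38.3 CPM (log2 fold change 6.59 ± 0.42, adjusted p = 4.85e-07), and the metalloreductase Steap4 0.868 and 1.19 CPM and then 47.2 and 48.3 CPM (log2 fold change 5.53 ± 0.32, adjusted p = 3.16e-07). The Golgi kinase Fam20c had 0.935 and 1.42 CPM and 63.3 and 45.7 CPM, and the ectonucleotidase Entpd3, which degrades extracellular ATP, 2.34 and 2.76 CPM and 84.6 and 64.1 CPM. In all of them the 2 three-week libraries stood apart from the 4 others without overlap. The remaining genes of these 12 were Stfa2, Fignl2, Prok2, BC100530, 0610040J01Rik and Ggt1, the gamma-glutamyltransferase of glutathione breakdown, with log2 fold changes from 4.38 in Ggt1 to 5.38 in Stfa2.

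**Figure D2:**
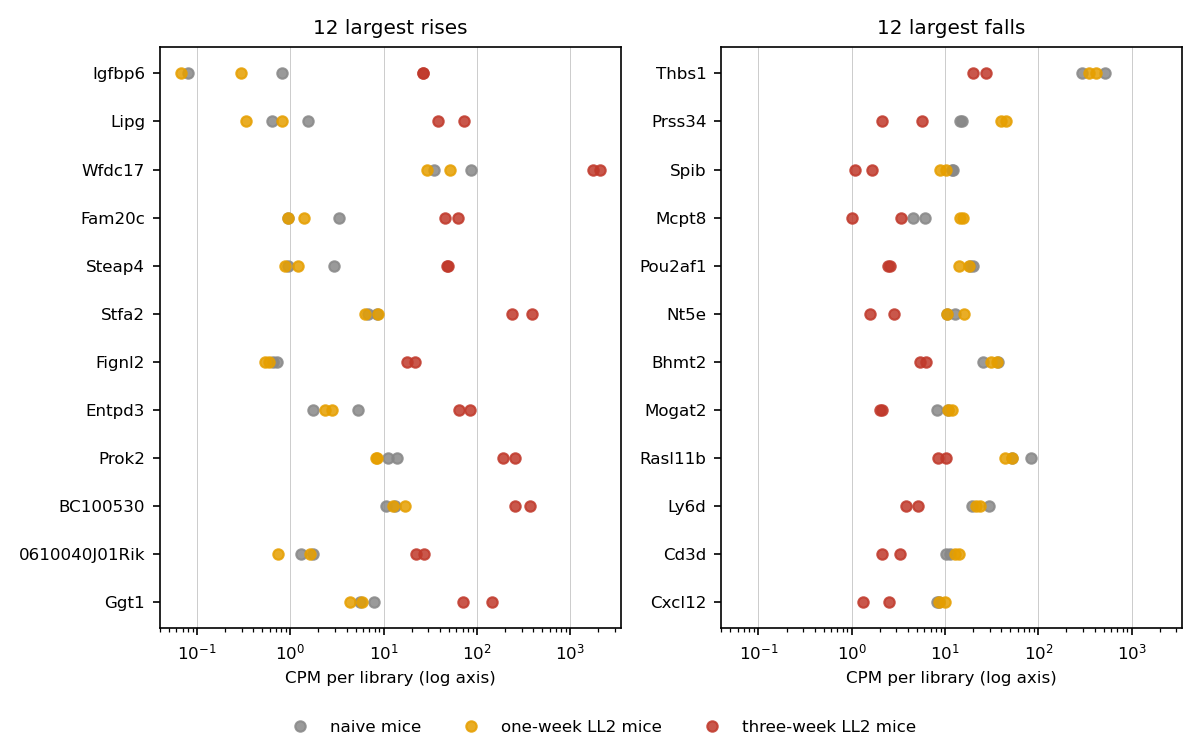
CPM (log axis) of the 12 protein-coding genes with the largest rises and the 12 with the largest falls, 1 point per library, for naive mice (grey), one-week LL2 mice (orange) and three-week LL2 mice (red). In each gene both red points lay on one side of both orange points, which was a condition for choosing these genes.

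The largest fall was that of Thbs1 (ENSMUSG00000040152, chromosome 2, 118111876 to 118127133), the gene of the matrix glycoprotein thrombospondin 1. It stood at 418 and 350.3 CPM at 1 week and 27.2 and 20 CPM at 3 weeks, 16.3-fold lower (log2 fold change -4.02 ± 0.25, adjusted p = 3.47e-07). Naive libraries had 519 and 295 CPM, above both three-week libraries. Of the other 11 genes with the largest falls, Spib, Pou2af1 and Ly6d are known from B-lineage and plasmacytoid dendritic cells, Cd3d from T cells, Prss34 and Mcpt8 from basophils and Cxcl12 from marrow stroma. Nt5e encodes CD73, which makes adenosine from AMP, and it fell from 16 and 10.6 CPM to 1.55 and 2.85 CPM. Bhmt2, a methyltransferase of methionine synthesis, went from 30.7 and 36.2 CPM to 5.43 and 6.23 CPM (log2 fold change -2.52 ± 0.20, adjusted p = 2.63e-06), and the small GTPase Rasl11b from 52 and 44.3 CPM to 8.45 and 10.3 CPM (log2 fold change -2.36 ± 0.21, adjusted p = 7.59e-06). Mogat2, an acyltransferase of triglyceride synthesis, had 11.7 and 10.7 CPM and 2.09 and 2 CPM.

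Some genes were at or below 3 counts in both libraries of a week, and their folds are lower bounds against 3 counts per library. Of protein-coding genes called higher at 3 weeks, 14 were in this state at 1 week, and of those called lower, 27 were in this state at 3 weeks. Spint1, an inhibitor of membrane serine proteases, had 0 and 0 counts at 1 week and 147 and 100 counts at 3 weeks, at least 42.7-fold higher (adjusted p = 9.6e-06). Nos2, the inducible nitric oxide synthase, had 0 and 0 counts and then 98 and 69 counts, at least 28.9-fold higher (adjusted p = 2.95e-05). Ambp, which encodes the precursor of alpha-1-microglobulin and bikunin, was at least 27.3-fold higher, and the sulfotransferase Sult6b2 and the acute-phase apolipoprotein Saa3 at least 19.2-fold and 18.8-fold. The 5 highest of the genes lost from detection were Ugt1a6b, Blk, Slc6a12, Fam161a and Myl4, with bounds between 7.38-fold and 12.3-fold. Ugt1a6b rested on 1 library, with 86 and 0 counts at 1 week, and Blk is a kinase of B cells. Ugt1a6b and Myl4 lost their calls in 6 and 2 of the 16 alternatives, respectively (adjusted p up to 1 and 0.0891).

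**Figure D3:**
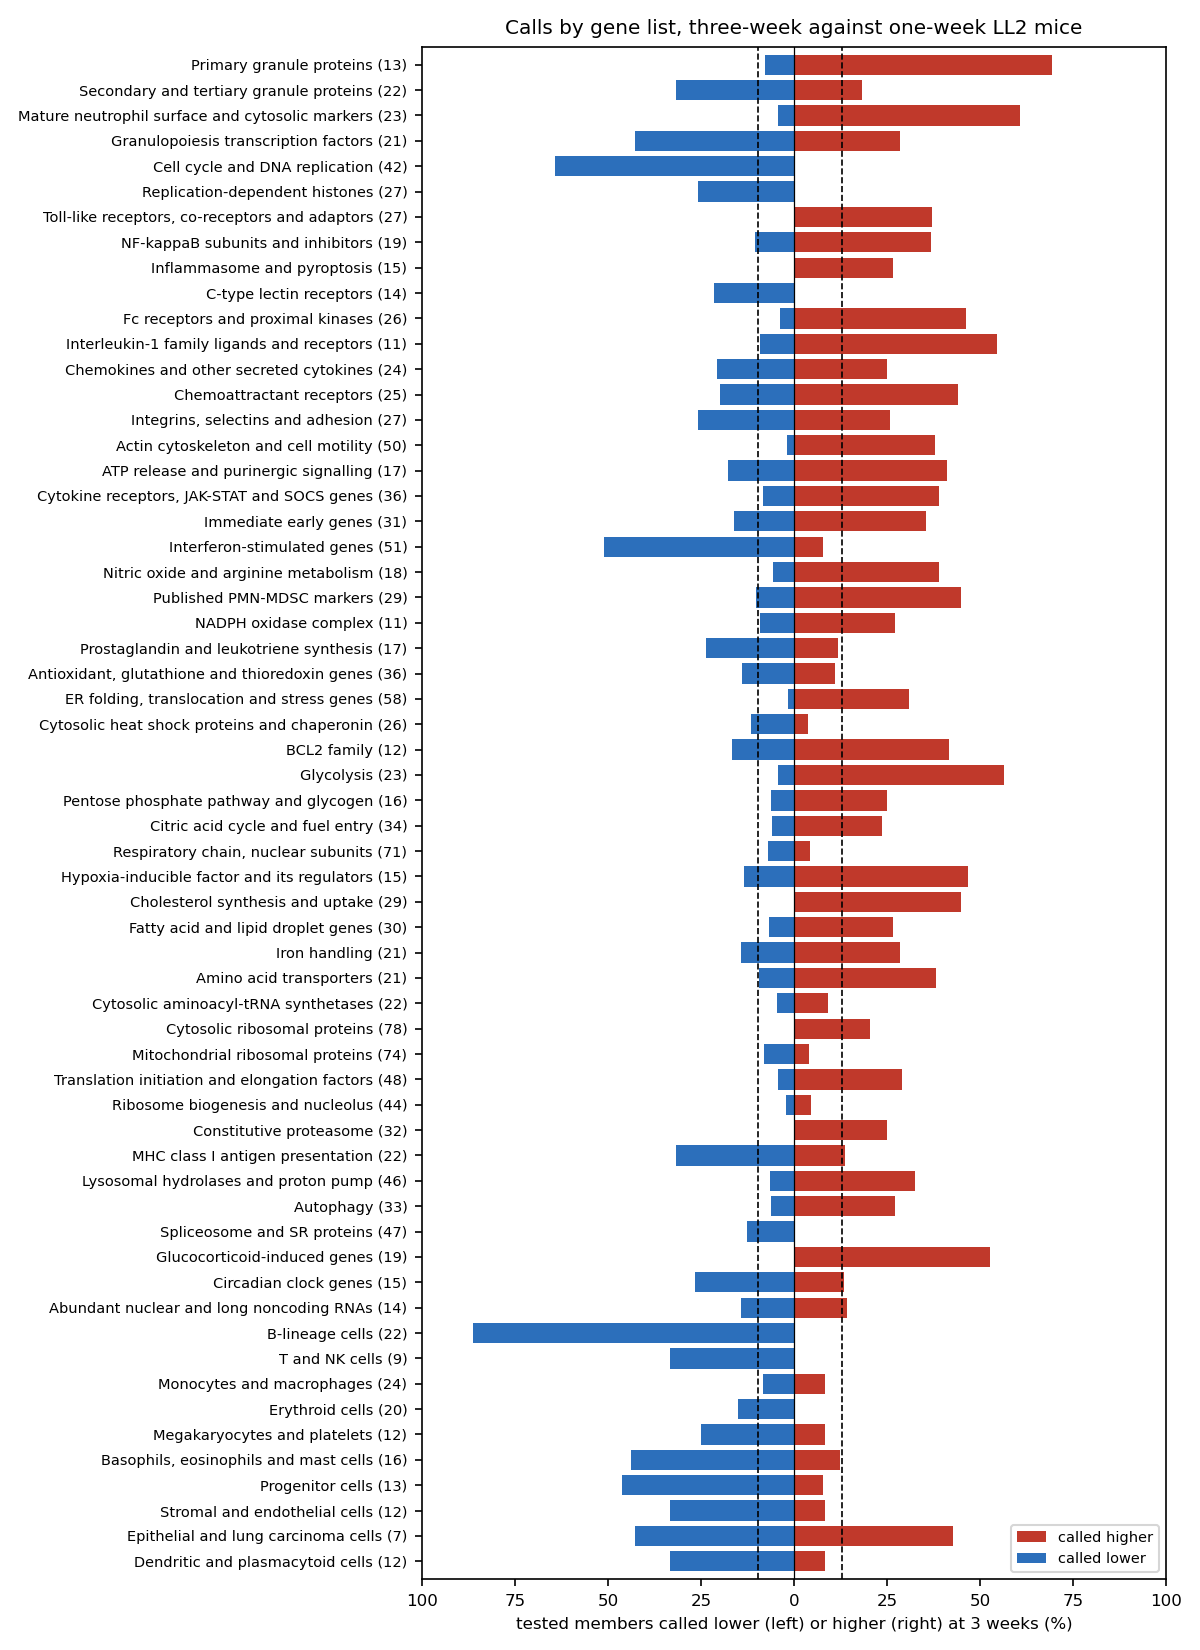
For each list of genes, the bars show the percentage of its tested members called lower (blue, to the left) and higher (red, to the right) at 3 weeks against 1 week. The dashed lines mark the 9.57% lower and 12.9% higher among all tested genes, and numbers of tested members stand in parentheses.

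The genes of granule proteins moved apart. Of 13 tested primary granule genes 9 were higher and 1 lower, with a median log2 fold change of 0.63 beside -0.02 over all tested genes. Prtn3, which encodes proteinase 3, had 14 and 26.5 CPM at 1 week and 99.7 and 136 CPM at 3 weeks (log2 fold change 2.55 ± 0.25, adjusted p = 1.68e-05). Ctsg, the gene of cathepsin G, had 2.54 and 4.25 CPM and 13.6 and 22.7 CPM (log2 fold change 2.42 ± 0.30, adjusted p = 8.36e-05), Mpo, that of myeloperoxidase, 29.2 and 47.8 CPM and 119 and 167 CPM (log2 fold change 1.90 ± 0.23, adjusted p = 9.01e-05), and Elane, that of neutrophil elastase, 2.67 and 6.49 CPM and 10.2 and 13.5 CPM (log2 fold change 1.38 ± 0.34, adjusted p = 0.0112). Each of these proteases and the peroxidase lay higher in both three-week libraries than in any other library. Ctsc, the protease that activates the granule serine proteases, rose too, from 31.5 and 34.5 CPM to 83 and 61.4 CPM. The member that fell was Lyz2, which encodes lysozyme and had the highest CPM of the list. Lyz2 had 7869 and 10025 CPM in naive mice, 13710.4 and 14015 CPM at 1 week and 3205 and 4191 CPM at 3 weeks (log2 fold change -1.91 ± 0.15, adjusted p = 2.63e-06). Through Lyz2 the summed level of the list went from 15291 and 15583 CPM to 5331 and 6368 CPM, against the sign of its median. Elane lost its call in 2 of the 16 alternatives (adjusted p up to 0.105).

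Of 22 tested secondary and tertiary granule genes 4 were higher and 7 lower, with a median of 0.00 (0 and 8, and -0.20, with library size alone). Camp, the precursor of the antimicrobial peptide CRAMP, had 21883 and 18859 CPM at 1 week and 8099.8 and 9935 CPM at 3 weeks, 2.26-fold lower (log2 fold change -1.18 ± 0.14, adjusted p = 5.75e-05). Ltf, the iron-binding lactoferrin, had 5241 and 5945 CPM and 3669 and 4231 CPM (log2 fold change -0.50 ± 0.12, adjusted p = 0.00825), and the chitinase-like Chil3 1561 and 1807 CPM and 867 and 935 CPM (log2 fold change -0.90 ± 0.12, adjusted p = 0.000156). Fcnb, a ficolin, and Orm1, the acute-phase protein orosomucoid, fell (log2 fold changes -1.13 and -2.22). No three-week library reached a one-week library in these 5 genes. Of the 4 higher members, Mmp9 encodes gelatinase B of the tertiary granules, Itgam the integrin CD11b, Hp haptoglobin and Anxa1 annexin A1, and their log2 fold changes lay between 0.46 and 0.59. Itgam, Hp and Anxa1 lost their calls in 3, 4 and 7 of the 16 alternatives, respectively (adjusted p up to 0.173, 0.156 and 0.322).

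**Figure D4:**
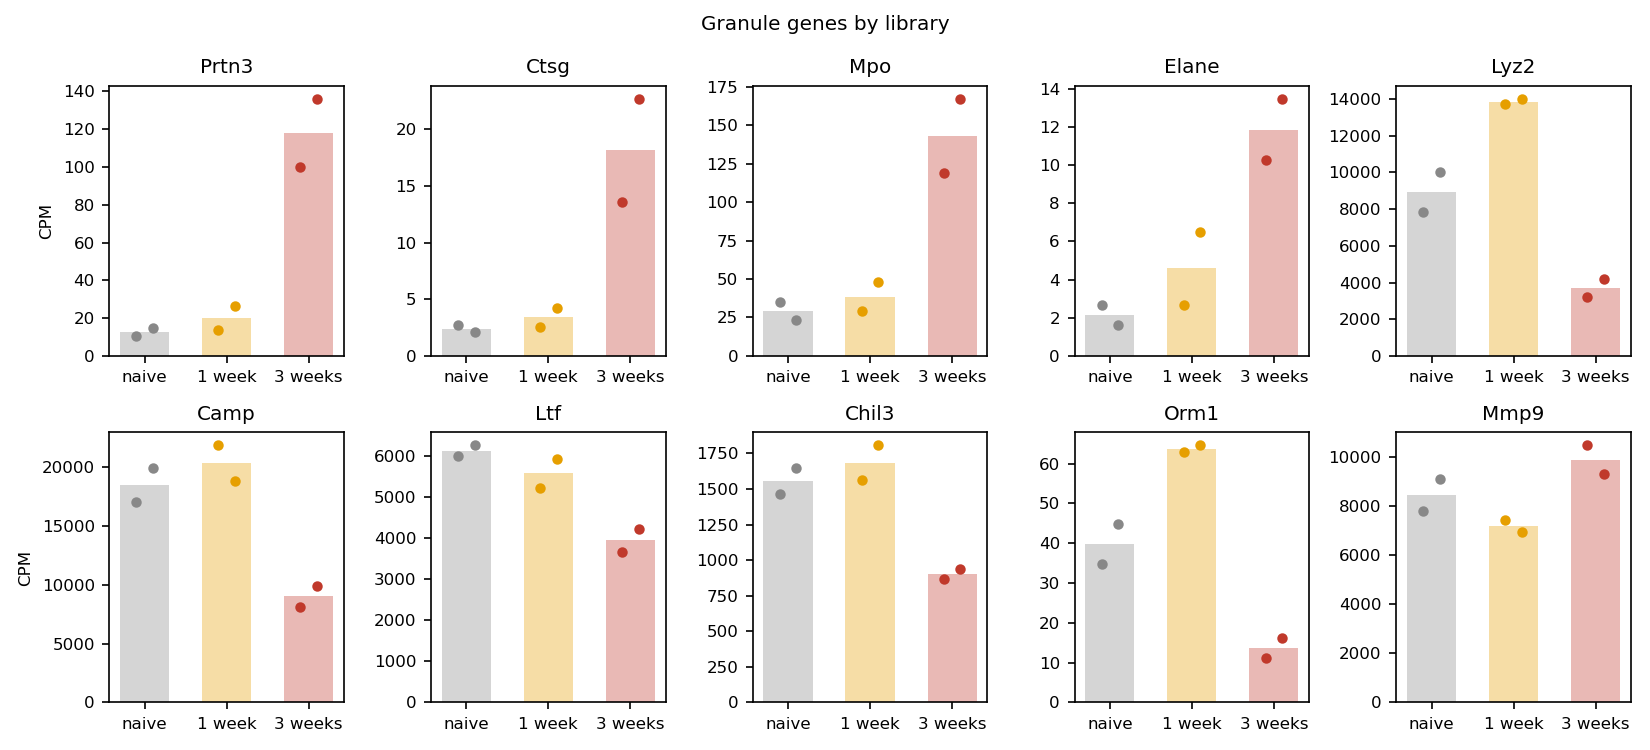
CPM (linear axes from 0) of 5 primary granule genes (upper row) and 5 secondary or tertiary granule genes (lower row) in each library of naive, one-week and three-week LL2 mice, with bars at the mean of the 2 libraries of a group. Prtn3, Ctsg, Mpo and Elane were highest at 3 weeks, whereas Lyz2, Camp, Ltf, Chil3 and Orm1 were lowest.

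Of 23 tested markers of mature neutrophils 14 were higher and 1 lower, beside 12.9% and 9.57% of all tested genes, with a median of 0.51. The stefin A genes, cysteine protease inhibitors that lie as a cluster on chromosome 16, led the list. Stfa2 had 8.61 and 6.34 CPM at 1 week and 389 and 238 CPM at 3 weeks (log2 fold change 5.38 ± 0.24, adjusted p = 5.43e-08), BC100530 17.1 and 12.5 CPM and 370.1 and 255 CPM (log2 fold change 4.40 ± 0.21, adjusted p = 6.81e-08), Stfa3 39.4 and 25.7 CPM and 498 and 332 CPM (log2 fold change 3.67 ± 0.22, adjusted p = 3.37e-07), Stfa2l1 64.2 and 57.3 CPM and 256 and 200.4 CPM (log2 fold change 1.91 ± 0.14, adjusted p = 1.19e-06) and Stfa1 32 and 23 CPM and 191 and 145 CPM (log2 fold change 2.61 ± 0.20, adjusted p = 2.27e-06). These 5 genes are close copies of each other, so how the counting divided reads between them is uncertain, although all 5 were separated in the same direction. Cxcr2, the receptor that draws mature neutrophils out of the marrow, had 435 and 359 CPM at 1 week and 899 and 769 CPM at 3 weeks (log2 fold change 1.07 ± 0.14, adjusted p = 0.000132). Cxcr4, which holds neutrophils in the marrow and is the member that was lower, had 906 and 786 CPM and 367 and 556 CPM (log2 fold change -0.87 ± 0.16, adjusted p = 0.00196). The receptor for release was thus higher and the receptor for retention lower in both three-week libraries. Cxcr1 rose as well, from 2.27 and 3.43 CPM to 7.06 and 8.92 CPM (adjusted p = 0.00825). Cxcr1 lost its call in 2 of the 16 alternatives (adjusted p up to 0.0888).

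The transcription factors of granulopoiesis were divided, with 6 of 21 higher and 9 lower and a median of -0.03. Cebpb, which drives emergency granulopoiesis, had 502 and 364 CPM at 1 week and 929 and 953 CPM at 3 weeks (log2 fold change 1.12 ± 0.16, adjusted p = 0.000317). Cebpe, needed for secondary granule genes, had 103 and 111 CPM and 44.4 and 46.6 CPM (log2 fold change -1.23 ± 0.12, adjusted p = 1.37e-05). The progenitor factor Myb had 47.9 and 47.9 CPM and 20.7 and 23.5 CPM (log2 fold change -1.12 ± 0.13, adjusted p = 5.92e-05). The retinoic acid receptor Rara and the basic leucine zipper factor Nfil3 rose by 0.90 and 1.03 on the log2 scale. Cebpb was thus higher and Cebpe and Myb lower in both three-week libraries.

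Genes of cell division were lower. Of 42 tested cell cycle and replication genes 0 were higher and 27 lower, with a median of -0.57. Cdk1, the kinase of mitotic entry, had 107 and 127 CPM at 1 week and 54.4 and 54.8 CPM at 3 weeks (log2 fold change -1.10 ± 0.13, adjusted p = 5.9e-05). Stmn1, which destabilises microtubules, had 248 and 269.8 CPM and 108 and 130.1 CPM (log2 fold change -1.12 ± 0.12, adjusted p = 3.72e-05), the ubiquitin-conjugating enzyme Ube2c 106 and 114 CPM and 54.5 and 62.2 CPM, and the helicase factor Cdc45 26 and 24.4 CPM and 13.9 and 13.2 CPM. Cdc20, the activator of the anaphase-promoting complex, fell by 0.84 on the log2 scale. Both three-week libraries lay below both one-week libraries in each of these 5 genes. Of 27 tested replication-dependent histone genes 0 were higher and 7 lower (median -0.97), although they were low throughout, with Hist1h4i at 9.95 and 11.6 CPM and 6.98 and 5.61 CPM. Hist1h4i lost its call in 4 of the 16 alternatives (adjusted p up to 0.144).

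Markers of other cells moved with these genes. Of 22 tested B-lineage markers 0 were higher and 19 lower, with a median of -1.90, and their summed level was 251 and 258 CPM at 1 week and 96.0 and 72.3 CPM at 3 weeks. Of the defining markers, Cd79b had 13.4 and 10.1 CPM and 3.34 and 2.38 CPM and Vpreb3 7.81 and 5.37 CPM and 0.543 and 0.385 CPM. The early B-cell genes Rag1, with 0 and 0 counts, and Igll1, with 0 and 1, were at or below 3 counts in both three-week libraries. Of 16 basophil, eosinophil and mast cell markers 2 were higher and 7 lower (summed level 1044 and 1170 CPM, then 961 and 986 CPM). Prss34, a basophil protease, had 39.9 and 44.5 CPM and 2.09 and 5.61 CPM (log2 fold change -3.45 ± 0.28, adjusted p = 2.8e-06), and Mcpt8 15.5 and 14.5 CPM and 1.01 and 3.38 CPM (log2 fold change -2.76 ± 0.35, adjusted p = 0.000126). Of 13 progenitor markers 1 was higher and 6 lower (117 and 129 CPM, then 76.9 and 78.1 CPM). Of 20 erythroid markers 0 were higher and 3 lower, and their sum was 1401 and 1593 CPM at 1 week but 1422 and 619 CPM at 3 weeks, so that the second three-week library stood apart. Of 9 T and NK cell markers that could be tested 0 were higher and 3 lower (38.7 and 54.4 CPM, then 18.3 and 20.7 CPM), and the number lower was between 1 and 4 with one library left out. The kinase gene Lck, one of the 3, had 2.4 and 9.55 CPM at 1 week and 1.16 and 1.08 CPM at 3 weeks, and its log2 fold change of -2.40 (adjusted p = 0.00772) became -1.13 (adjusted p = 0.218) without the second one-week library. Cd3d had 12.7 and 14.2 CPM and 2.09 and 3.31 CPM, alike in both one-week libraries. Of 12 dendritic cell markers 1 was higher and 4 lower (159 and 167 CPM, then 109 and 125 CPM), and of 12 platelet markers 1 was higher and 3 lower (212 and 234 CPM, then 171 and 201 CPM). The sums of the monocyte markers (1831 and 1896 CPM, then 2404 and 1834 CPM), stromal markers (170 and 185 CPM, then 177 and 184 CPM) and epithelial markers (52.6 and 66.7 CPM, then 63.5 and 50.2 CPM) overlapped between the weeks, with 2 and 2 of 24, 1 and 4 of 12, and 3 and 3 of 7 members higher and lower. Spint1, with 0 and 0 counts at 1 week and 147 and 100 counts at 3 weeks, was among the 3 higher epithelial members, beside 3 lower. The part of these other cells in the lower levels of cell cycle, histone and progenitor genes was not tested. Rag1 and Lck lost their calls in 1 and 1 of the 16 alternatives, respectively (adjusted p up to 0.0625 and 0.218).

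Of 36 tested cytokine receptors, JAK-STAT and SOCS genes 14 were higher and 3 lower, with a median of 0.31. Socs3, the feedback inhibitor of signals from the G-CSF and IL-6 receptors, had 22.6 and 22.7 CPM at 1 week and 155 and 169 CPM at 3 weeks (log2 fold change 2.84 ± 0.17, adjusted p = 3.37e-07). Il4ra had 123 and 137 CPM and 821 and 645 CPM (log2 fold change 2.50 ± 0.18, adjusted p = 9.24e-07). Csf2rb, the shared beta chain of the receptors for GM-CSF, IL-3 and IL-5, had 237 and 278 CPM and 771 and 613 CPM (log2 fold change 1.43 ± 0.16, adjusted p = 4.82e-05), and Csf2rb2, the beta chain specific to IL-3, 5.54 and 7.83 CPM and 39.9 and 31.8 CPM (log2 fold change 2.43 ± 0.20, adjusted p = 3.39e-06). In these genes every three-week library was higher than every one-week library. Ifngr1, a chain of the interferon gamma receptor, rose from 56.7 and 68.6 CPM to 227 and 227 CPM. The naive libraries lay beside the one-week libraries in Socs3, at 23.6 and 35.5 CPM, and in Il4ra, at 120.4 and 177 CPM. Stat3, which these receptors activate, had 715 and 773 CPM in naive mice, 531 and 538 CPM at 1 week and 969 and 1012 CPM at 3 weeks (log2 fold change 0.89 ± 0.11, adjusted p = 8.09e-05). Csf3r, the G-CSF receptor itself, rose by 0.42 (adjusted p = 0.0475, call lost in 9 of 16 alternatives, adjusted p up to 0.4). The letters TTCNNNGAA of the STAT binding motif occurred on either strand in the promoters of 8 of the 29 members with a RefSeq promoter (27.6%) and of 8.41% of tested genes and 9.55% of all 27025 genes with one, where a promoter is the window from 250 bases before to 50 after the start. The share was 4 of 12 among members called higher, 4 of 16 among those not called and 0 of 1 among those called lower. The 250 bases before the start of Socs3, the member with the smallest adjusted p (chr11:117969367-117969616 of GRCm38.p6, minus strand), carried it once, in capitals in the line that follows.
Socs3: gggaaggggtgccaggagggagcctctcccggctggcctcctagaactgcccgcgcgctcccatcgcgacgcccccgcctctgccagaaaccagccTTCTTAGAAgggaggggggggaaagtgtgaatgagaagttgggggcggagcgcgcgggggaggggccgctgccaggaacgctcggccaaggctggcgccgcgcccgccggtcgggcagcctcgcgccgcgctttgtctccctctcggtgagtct

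Interferon-stimulated genes went the other way. Of 51 tested members 26 were lower and 4 higher at 3 weeks, with a median of -0.76 beside -0.02 over all genes. The summed level of the list went from 3165 and 2925 CPM at 1 week to 5364 and 5057 CPM at 3 weeks, against the sign of its median. Rsad2, the antiviral enzyme viperin, had 218 and 156 CPM at 1 week and 39.6 and 67.4 CPM at 3 weeks (log2 fold change -1.80 ± 0.21, adjusted p = 6.11e-05). Its naive libraries, at 238 and 243 CPM, lay with those of 1 week. Ifi27l2a had 116 and 117 CPM and 25.1 and 44.8 CPM (log2 fold change -1.73 ± 0.22, adjusted p = 0.000113), and Irf7, the factor that amplifies interferon signals, 56.3 and 55.7 CPM and 21.6 and 27.4 CPM (log2 fold change -1.19 ± 0.15, adjusted p = 0.00013). Isg15, Ifit3 and Cxcl10, which define the interferon response, changed by -0.82, -2.17 and -2.39 on the log2 scale. The members that rose were Ifitm1, Trim30a, Trim30d and Slfn4. Ifitm1, which encodes a membrane protein that restricts virus entry, had 138 and 249.5 CPM in naive mice, 119 and 199 CPM at 1 week and 2788 and 2324 CPM at 3 weeks, 16.1-fold higher (log2 fold change 4.01 ± 0.28, adjusted p = 7.76e-07). Ifitm2 of the same gene family rose as well, from 45.5 and 58.9 CPM to 234 and 170.2 CPM. Cxcl10, Trim30d and Slfn4 lost their calls in 3, 5 and 4 of the 16 alternatives, respectively (adjusted p up to 0.221, 0.23 and 0.35).

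The promoters of 26 of the 42 members with a RefSeq promoter (61.9%) held the interferon-stimulated response element, searched as GAAA, any 2 bases and GAAA on both strands, against 4.02% of the tested genes and 3.99% of all 27025 genes. The share was 14 of 21 among members called lower, 2 of 4 among those called higher and 10 of 17 among those not called. The 250 bases before the start are shown for 4 lower members and, for contrast, for Ifitm1, with the element in capitals (GRCm38.p6). Rsad2 lies at chr12:26456453-26456702 on the minus strand, Ifit3 at chr19:34583279-34583528 on the plus strand, Isg15 at chr4:156200819-156201068 on the minus strand, Cxcl10 at chr5:92348890-92349139 on the minus strand and Ifitm1 at chr7:140967826-140968075 on the plus strand. In Isg15 matches overlap each other, and in Ifitm1 these letters did not occur in the window.
Rsad2: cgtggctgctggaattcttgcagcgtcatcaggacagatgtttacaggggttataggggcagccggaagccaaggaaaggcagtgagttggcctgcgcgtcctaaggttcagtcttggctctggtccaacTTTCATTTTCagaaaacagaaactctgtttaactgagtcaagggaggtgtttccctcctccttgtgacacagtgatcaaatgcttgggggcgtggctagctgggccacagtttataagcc
Ifit3: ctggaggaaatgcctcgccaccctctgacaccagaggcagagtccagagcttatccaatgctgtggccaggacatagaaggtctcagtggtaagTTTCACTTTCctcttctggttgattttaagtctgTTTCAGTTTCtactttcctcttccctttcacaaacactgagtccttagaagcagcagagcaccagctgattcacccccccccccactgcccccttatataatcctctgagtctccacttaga
Isg15: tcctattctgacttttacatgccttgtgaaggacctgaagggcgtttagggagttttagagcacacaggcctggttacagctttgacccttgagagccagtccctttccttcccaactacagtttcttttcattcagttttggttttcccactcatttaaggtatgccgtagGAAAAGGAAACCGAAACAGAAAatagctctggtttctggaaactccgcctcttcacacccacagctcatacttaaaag
Cxcl10: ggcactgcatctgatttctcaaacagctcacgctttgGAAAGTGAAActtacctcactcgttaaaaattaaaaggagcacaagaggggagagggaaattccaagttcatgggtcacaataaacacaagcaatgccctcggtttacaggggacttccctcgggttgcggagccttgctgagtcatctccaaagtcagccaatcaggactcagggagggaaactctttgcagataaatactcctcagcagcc
Ifitm1: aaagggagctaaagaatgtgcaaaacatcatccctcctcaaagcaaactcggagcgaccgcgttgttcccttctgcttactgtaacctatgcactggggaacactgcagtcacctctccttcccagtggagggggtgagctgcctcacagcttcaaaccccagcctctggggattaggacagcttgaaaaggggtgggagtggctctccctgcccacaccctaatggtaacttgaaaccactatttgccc

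Antigen presentation by MHC class I, which interferons induce, had 3 of 22 members higher and 7 lower (median -0.23). B2m, the light chain of all class I molecules, had 645 and 697 CPM at 1 week and 358 and 453 CPM at 3 weeks (log2 fold change -0.73 ± 0.15, adjusted p = 0.00324). The nonclassical H2-Q7 and H2-Q6 fell (log2 fold changes -1.99 and -1.70), but they are close copies, so the split of reads between them is uncertain. H2-D1, a classical heavy chain, stayed uncalled at 1581 and 1352 CPM and 1520.4 and 1505 CPM (adjusted p = 0.836). The peptide transporter Tap2 was higher, with 88.6 and 72.4 CPM and 164 and 201 CPM (log2 fold change 1.18 ± 0.14, adjusted p = 7.4e-05). In B2m and Tap2 the weeks did not overlap, with opposite directions.

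Of 27 Toll-like receptor genes and partners 10 were higher and 0 lower, with a median of 0.27 (8 and 2, and 0.06, with library size alone). Cd14, the co-receptor for lipopolysaccharide, had 26.7 and 19.5 CPM at 1 week and 111 and 111 CPM at 3 weeks (log2 fold change 2.26 ± 0.15, adjusted p = 5.68e-07). The receptor Tlr4 had 13.6 and 13.6 CPM and 27.3 and 26.6 CPM (log2 fold change 0.98 ± 0.15, adjusted p = 0.000347), and the adaptor Myd88 90.8 and 87.4 CPM and 215 and 217 CPM (log2 fold change 1.28 ± 0.11, adjusted p = 7.39e-06). Receptor, co-receptor and adaptor of lipopolysaccharide sensing were therefore all higher, by more than the difference between replicates. Tlr6, a partner of Tlr2, and Tlr13, a sensor of bacterial ribosomal RNA, rose by 1.48 and 0.79, while Tlr2 itself was not called (adjusted p = 0.995). Of 15 inflammasome genes 4 were higher and 0 lower, beside 12.9% and 9.57% of all tested genes. The higher members were the adaptor Pycard (0.86), the lipopolysaccharide-sensing caspase Casp4 (1.16) and the sensors Nlrp12 (0.84) and Mefv (1.22), whereas Nlrp3 had 92.9 and 60.9 CPM and 60.9 and 62.2 CPM and was not called (adjusted p = 0.185). Of 26 Fc receptors and proximal kinases 12 were higher and 1 lower (9 and 5 with library size alone), led by the inhibitory receptors Cd300lf, Pirb and Siglece, which rose by 1.15, 1.08 and 1.07 on the log2 scale. Fcgr4, an activating Fc receptor, rose by 0.75. C-type lectin receptors had 0 of 14 higher and 3 lower, namely Olr1 (-2.09), Clec12a (-0.63) and Clec4a2 (-0.37). Together 21.4% of this list was called, beside 22.5% of all tested genes. Clec4a2 lost its call in 4 of the 16 alternatives (adjusted p up to 0.149).

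Of 19 NF-kappaB subunits and inhibitors 7 were higher and 2 lower (3 and 4 with library size alone, where the median of 0.19 became -0.01). The rises included the inhibitor Nfkbia (0.95), Bcl3 (1.80) and the adaptor Tank (0.61). The falls were Nfkbid (-0.85) and Nfkbie (-1.24). The inhibitors Nfkbia and Nfkbie thus moved in opposite directions. Immediate early genes had 11 of 31 higher and 5 lower (8 and 10, and a median of -0.05 in place of 0.15, with library size alone). The RNA-binding Zfp36l1 had 24.2 and 28.6 CPM at 1 week and 137 and 123 CPM at 3 weeks (log2 fold change 2.30 ± 0.13, adjusted p = 3.37e-07), and the AP-1 subunits Jun and Junb rose by 1.45 and 0.77. The nuclear receptor Nr4a1 had 92.4 and 85.2 CPM and 37.1 and 38.1 CPM (log2 fold change -1.24 ± 0.12, adjusted p = 1.93e-05), and Atf3 fell by 1.48 on the log2 scale. Genes known to be induced by glucocorticoids had 10 of 19 higher and 0 lower, with a median of 0.67. Among them were Tsc22d3, the mediator GILZ, with 113 and 125 CPM at 1 week and 244 and 314 CPM at 3 weeks (log2 fold change 1.23 ± 0.17, adjusted p = 0.000219), Klf9 (1.60), Pik3ip1 (2.01) and Fkbp5 (1.30). The naive libraries had 344 and 238 CPM of Tsc22d3, as much as at 3 weeks, so that the low point of this gene was 1 week. Of 15 circadian clock genes 2 were higher and 4 lower. Per2 had 28 and 27.9 CPM at 1 week and 8.07 and 7.92 CPM at 3 weeks (log2 fold change -1.81 ± 0.15, adjusted p = 4.01e-06), and the output factor Dbp fell by 1.57 on the log2 scale. The hour of sampling was not given in the sources used here, and its part in these values was not tested. Tank, Nfkbid, Nfkbie and Dbp lost their calls in 3, 1, 2 and 7 of the 16 alternatives, respectively (adjusted p up to 0.0979, 0.0561, 0.126 and 0.185).

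Among chemokines and other secreted cytokines 6 of 24 were higher and 5 lower (median -0.05). Prok2, which encodes the chemokine-like prokineticin 2, had 8.34 and 8.43 CPM at 1 week and 258 and 191 CPM at 3 weeks (log2 fold change 4.74 ± 0.18, adjusted p = 1.33e-08). Cxcl2, a ligand of Cxcr2, had 704 and 562 CPM and 3042 and 1888 CPM (log2 fold change 1.96 ± 0.21, adjusted p = 3.72e-05), while the macrophage inflammatory proteins Ccl3 and Ccl4 fell (log2 fold changes -1.74 and -0.89). Prok2 and Cxcl2 were therefore higher, and Ccl3 and Ccl4 lower, in both three-week libraries. Chemoattractant receptors had 11 of 25 higher and 5 lower (6 and 6, and a median of -0.12 in place of 0.08, with library size alone). Beside the CXC receptors, Ccr1 rose by 0.67, and Ffar2, the receptor of short-chain fatty acids, fell from 113 and 111 CPM to 57.5 and 56 CPM (log2 fold change -0.98 ± 0.11, adjusted p = 5.98e-05). S1pr1, which senses sphingosine-1-phosphate, fell by 1.50 on the log2 scale. In the interleukin-1 family 6 of 11 were higher and 1 lower. The decoy receptor Il1r2 had 405 and 367 CPM at 1 week and 1304 and 823 CPM at 3 weeks (log2 fold change 1.46 ± 0.17, adjusted p = 6.85e-05), and the receptor antagonist Il1rn was the member that fell, from 112 and 104 CPM to 42.5 and 44.4 CPM (log2 fold change -1.31 ± 0.12, adjusted p = 6.83e-06). Both of these genes restrain interleukin-1, and they moved in opposite directions. Il1b itself had 580.1 and 612 CPM and 428 and 921 CPM, where the three-week libraries enclosed those of 1 week. Ccr1 lost its call in 1 of the 16 alternatives (adjusted p up to 0.0505).

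Of 50 genes of the actin cytoskeleton 19 were higher and 1 lower, with a median of 0.20, but with library size alone the counts were 6 and 4 and the median -0.01. Arpc3, a subunit of the Arp2/3 complex, had 995 and 1100.0 CPM at 1 week and 1934 and 1769.9 CPM at 3 weeks (log2 fold change 0.82 ± 0.11, adjusted p = 0.000183). Profilin, encoded by Pfn1, had 86.4 and 70.5 CPM and 146 and 153 CPM (log2 fold change 0.93 ± 0.13, adjusted p = 0.000245), and the membrane-actin linker moesin, encoded by Msn, rose by 0.75. In adhesion 7 of 27 members were higher and 7 lower. Selplg, the selectin ligand PSGL-1, had 509.9 and 566 CPM and 1142 and 1001 CPM (log2 fold change 0.99 ± 0.16, adjusted p = 0.00057), whereas the integrin subunits Itgb7 and Itgb3 fell (log2 fold changes -1.90 and -1.02). Jaml, which mediates passage through epithelium, fell by 1.65 on the log2 scale with 73.5 and 153 CPM in the three-week libraries, which differed from each other more than those of 1 week did.

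ATP release and purinergic signalling had 7 of 17 members higher and 3 lower (median 0.43). The channel gene Panx1 was low, at 1.67 and 2.91 CPM and 1.63 and 1.46 CPM, and was not called (adjusted p = 0.374), nor was the ATP-gated P2rx1 (adjusted p = 0.343). P2ry2, a receptor of ATP and UTP, had 4.61 and 4.85 CPM at 1 week and 15.3 and 12.4 CPM at 3 weeks (log2 fold change 1.55 ± 0.20, adjusted p = 0.000151), and P2ry1, a receptor of ADP, rose by 1.28 (adjusted p = 0.00752). Adora3, the adenosine A3 receptor, had 4.87 and 3.13 CPM and 39.4 and 26.5 CPM (log2 fold change 3.03 ± 0.36, adjusted p = 7.47e-05), P2ry13 18 and 18.4 CPM and 59.8 and 38.1 CPM, and P2ry12 1.94 and 2.24 CPM and 6.75 and 5.77 CPM. The other 2 higher members were the UDP receptor gene P2ry6 (1.82) and the adenosine deaminase gene Ada (0.65). The 3 lower members were Nt5e, which encodes CD73, the adenosine kinase gene Adk (-1.03) and the receptor gene P2ry10, which had 14 and 18 counts at 1 week and 1 and 1 counts at 3 weeks. P2ry1, P2ry6, Ada and P2ry10 lost their calls in 1, 1, 5 and 2 of the 16 alternatives, respectively (adjusted p up to 0.0891, 0.0579, 0.191 and 0.0573).

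Of 29 published PMN-MDSC markers 13 were higher and 3 lower (median 0.25, and 0.05 with library size alone). They included Wfdc17, Ifitm1, Ifitm2, Myd88 and Nos2, whose values are given above. Olr1, which encodes the receptor LOX-1, fell from 7.68 and 6.19 CPM to 1.4 and 1.85 CPM (log2 fold change -2.09 ± 0.34, adjusted p = 0.000661), and Ptgs2, the cyclooxygenase of prostaglandin E2 synthesis, from 18.8 and 9.99 CPM to 1.55 and 6.54 CPM (log2 fold change -1.83 ± 0.43, adjusted p = 0.00817). The three-week libraries of Ptgs2 differed from each other by several times, but both lay below 1 week. Arg1, which depletes arginine, had 0 counts in all 6 libraries, which allows at most 0.246 CPM. Within nitric oxide and arginine metabolism 7 of 18 tested members were higher and 1 lower. Gch1, which supplies the cofactor of nitric oxide synthase, had 10.2 and 9.77 CPM at 1 week and 34.1 and 25.1 CPM at 3 weeks (log2 fold change 1.57 ± 0.18, adjusted p = 5.15e-05), and Azin1, Sat1 and Oaz2 of polyamine metabolism rose by 1.01, 0.89 and 0.87. Ptgs2 lost its call in 3 of the 16 alternatives (adjusted p up to 0.214).

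Of 11 genes of the NADPH oxidase, which makes superoxide, 3 were higher and 1 lower. Cybb, the catalytic subunit, had 1102 and 1124 CPM at 1 week and 1005 and 1203 CPM at 3 weeks and was not called (adjusted p = 0.954), and the cytosolic subunit Ncf1 had 892 and 876 CPM and 1003 and 933 CPM (adjusted p = 0.411). Hvcn1, the proton channel that balances the charge of the oxidase, had 33 and 30.6 CPM and 10.4 and 11.7 CPM (log2 fold change -1.52 ± 0.15, adjusted p = 2.04e-05). Antioxidant genes had 4 of 36 higher and 5 lower (25% called, beside 22.5% of all tested genes). Gclm, of glutathione synthesis, had 18.8 and 20.4 CPM and 61.1 and 49.1 CPM (log2 fold change 1.49 ± 0.14, adjusted p = 1.42e-05), while Slc7a11, which imports cystine for it, fell from 25.1 and 18.6 CPM to 6.36 and 8.08 CPM (log2 fold change -1.60 ± 0.20, adjusted p = 0.000116), and the glutathione transferase Mgst2 fell (log2 fold change -1.10). In prostaglandin and leukotriene synthesis 2 of 17 members were higher and 4 lower. Alox5ap, which presents arachidonic acid to 5-lipoxygenase, had 636 and 638 CPM and 2067 and 1547 CPM (log2 fold change 1.50 ± 0.16, adjusted p = 2.5e-05), and the thromboxane synthase Tbxas1 and the prostaglandin E2 receptor Ptger4 fell (log2 fold changes -0.98 and -1.53). The leukotriene partner thus stood higher while Ptgs2, Tbxas1 and Ptger4 stood lower in both three-week libraries.

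**Figure D5:**
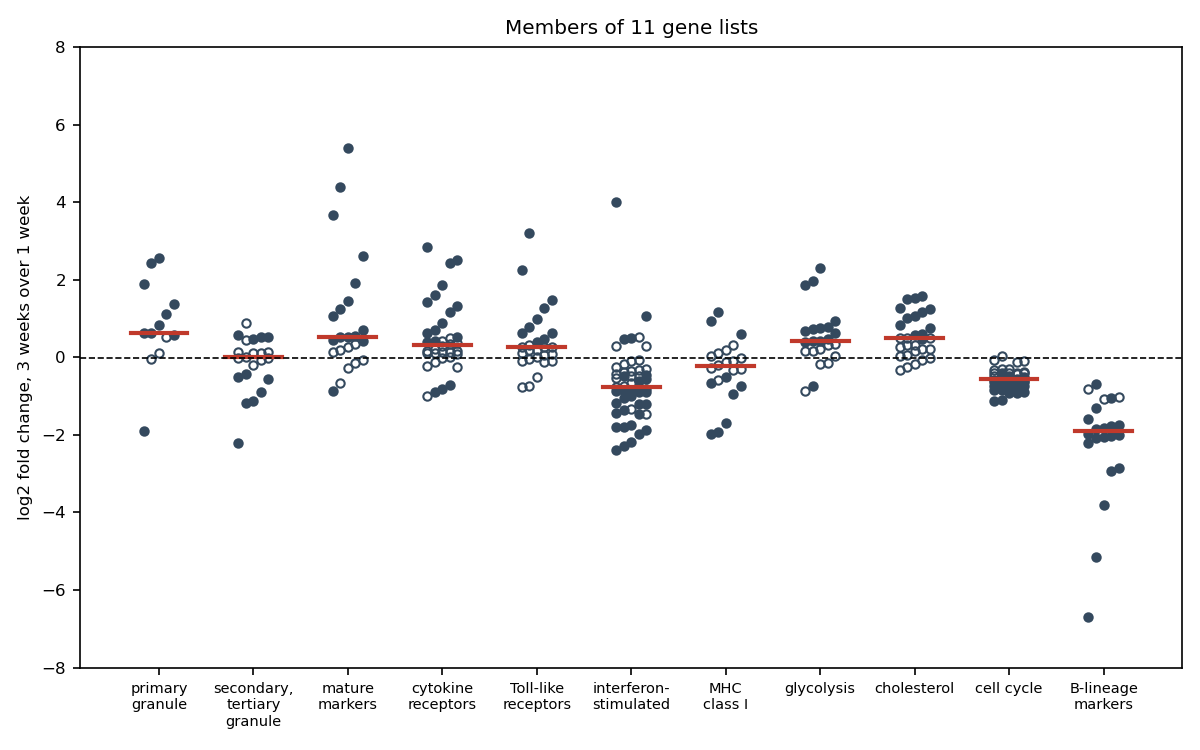
Each point is a tested member of a list, placed by its log2 fold change at 3 weeks over 1 week, with filled points for called and open points for uncalled members and a bar at the list's median. Interferon-stimulated, cell cycle and B-lineage genes lay mostly below the dashed median of all tested genes, and cytokine receptor, glycolysis and cholesterol genes mostly above it.

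In glycolysis 13 of 23 members were higher and 1 lower, with a median of 0.41 (9 and 1, and 0.21, with library size alone). Slc2a1, the glucose transporter GLUT1, had 12.1 and 14.9 CPM at 1 week and 54.8 and 50.5 CPM at 3 weeks (log2 fold change 1.97 ± 0.16, adjusted p = 2.67e-06). Slc2a3, the transporter GLUT3, was not called, with 541 and 538 CPM and 601 and 641 CPM (adjusted p = 0.244). Ldha, of lactate dehydrogenase, had 267 and 289.8 CPM and 499 and 562 CPM (log2 fold change 0.93 ± 0.11, adjusted p = 8.38e-05), and the lactate exporter Slc16a3, the regulator Pfkfb3 and the phosphofructokinase Pfkl rose by 0.76, 0.78 and 1.86. The member that was lower was the hexokinase Hk2 (-0.73). Hif1a, the oxygen-regulated factor, had 24.6 and 20.8 CPM at 1 week and 48.4 and 46.5 CPM at 3 weeks (log2 fold change 1.06 ± 0.14, adjusted p = 0.000148), and of its list 7 of 15 were higher and 2 lower. Among its targets and regulators Egln3 and Ankrd37 rose by 1.12 and 2.25, and Ndrg1 fell by 0.83 on the log2 scale. The letters ACGTG of the hypoxia element, searched on both strands and contained in the E-box CACGTG, stood in the promoters of 14 of 22 glycolysis members (63.6%), against 29.3% of the 9048 tested genes with a promoter and 21.8% of all 27025 promoters. The share was 8 of 13 among members called higher, 5 of 8 among those not called and 1 of 1 among those called lower. Of pentose phosphate and glycogen genes 4 of 16 were higher and 1 lower. G6pdx, the entry enzyme that yields NADPH, had 171 and 180.2 CPM and 389.8 and 487 CPM (log2 fold change 1.32 ± 0.15, adjusted p = 4.77e-05), and the glycogen phosphorylase Pygl rose by 0.80.

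Cholesterol synthesis and uptake had 13 of 29 members higher and 0 lower (median 0.49, and 9 and 1 with library size alone). Fdps, an enzyme of isoprenoid synthesis, had 7.68 and 7.23 CPM at 1 week and 22.7 and 20.1 CPM at 3 weeks (log2 fold change 1.52 ± 0.20, adjusted p = 0.000149), and Idi1 of the same pathway 4.41 and 4.18 CPM and 12 and 13.6 CPM (log2 fold change 1.58 ± 0.22, adjusted p = 0.000226). The regulators Srebf1 and Srebf2 rose by 1.23 and 0.56, and the exporter Abca1 rose by 1.26, so genes of both supply and removal were higher. Among fatty acid and lipid droplet genes 8 of 30 were higher and 2 lower. The binding protein Fabp5 and the droplet coat Plin2 rose by 1.13 and 1.03, and the desaturase Scd1 and the ligase Acsl1 fell (log2 fold changes -1.98 and -0.78). Cpt1a and Slc25a20, which carry fatty acids into mitochondria, rose by 1.23 and 1.39, among 8 of 34 members of the citric acid cycle and fuel entry that were higher and 2 that were lower (4 and 3 with library size alone). Nuclear subunits of the respiratory chain had 3 of 71 higher and 5 lower, with a median of -0.06, so that most were not called. Iron handling had 6 of 21 higher and 3 lower (3 and 4 with library size alone). In it, Steap4 stood beside Alas1, the first enzyme of heme synthesis (1.29), and the ferritin heavy chain Fth1, with 1289.6 and 1275 CPM and 2276 and 1907 CPM (log2 fold change 0.71 ± 0.12, adjusted p = 0.000772). Of 21 amino acid transporters 8 were higher and 2 lower. Slc7a5, the large neutral amino acid transporter LAT1, had 1.34 and 0.671 CPM at 1 week and 14.7 and 13.2 CPM at 3 weeks (log2 fold change 3.77 ± 0.31, adjusted p = 3.39e-06), and the taurine transporter Slc6a6 rose by 0.96. Srebf2 and Scd1 lost their calls in 1 and 3 of the 16 alternatives, respectively (adjusted p up to 0.0565 and 0.118).

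Genes of the endoplasmic reticulum had 18 of 58 members higher and 1 lower, with a median of 0.32 (7 and 3, and 0.12, with library size alone). The stress sensor Atf6 had 9.88 and 12.8 CPM at 1 week and 22.6 and 23.5 CPM at 3 weeks (log2 fold change 1.02 ± 0.17, adjusted p = 0.000772), and the factor Xbp1 76.6 and 55.7 CPM and 129 and 108 CPM (log2 fold change 0.84 ± 0.16, adjusted p = 0.00253). The disulfide isomerases Pdia3 and P4hb rose by 0.92 and 0.66. The chaperone Hspa5 was not called, with 405 and 403 CPM at 1 week and 593 and 447 CPM at 3 weeks (adjusted p = 0.0666), nor was the death-related factor Ddit3, with 21.1 and 28.2 CPM and 18.5 and 17.7 CPM (adjusted p = 0.0799). Heat shock proteins had 1 of 26 higher and 3 lower. In the lysosome list 15 of 46 were higher and 3 lower (10 and 7, and a median of -0.07 in place of 0.13, with library size alone), with the proton pump subunit Atp6v1a at 164 and 177 CPM and 394 and 375 CPM (log2 fold change 1.17 ± 0.11, adjusted p = 1.37e-05) and the cathepsins Ctsl and Ctss higher by 1.19 and 0.79. Autophagy had 9 of 33 higher and 2 lower, but 2 and 6 with library size alone. The kinase Ulk1 rose by 1.00, and Atg16l2 fell from 110.5 and 94.7 CPM to 31.1 and 39.9 CPM (log2 fold change -1.53 ± 0.14, adjusted p = 1.04e-05). In the BCL2 family 5 of 12 were higher and 2 lower. The survival gene Mcl1 had 871 and 787 CPM and 1633 and 1532 CPM (log2 fold change 0.93 ± 0.11, adjusted p = 7.21e-05) and Bcl2l1 18.2 and 18.9 CPM and 48.4 and 36.4 CPM (log2 fold change 1.19 ± 0.16, adjusted p = 0.00014), whereas Bcl2a1b, a close copy of other Bcl2a1 genes, and the death-promoting Pmaip1 fell (log2 fold changes -1.23 and -0.92). Xbp1 lost its call in 1 of the 16 alternatives (adjusted p up to 0.0544).

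Of 78 cytosolic ribosomal protein genes 16 were higher and 0 lower (median 0.19), of 48 translation factors 14 and 2 (0.19), and of 32 proteasome genes 8 and 0 (0.14). With library size alone these counts became 4 and 3, 4 and 4, and 1 and 1, with medians of -0.01, -0.01 and -0.06, so their direction depends on the scaling. With TMM scaling 20.5%, 33.3% and 25% of these lists were called, beside 22.5% of all tested genes. Rps27a had 56.3 and 55.8 CPM at 1 week and 132 and 147 CPM at 3 weeks (log2 fold change 1.32 ± 0.12, adjusted p = 6.83e-06), the elongation factor Eef1a1 914 and 910.1 CPM and 1457 and 1674 CPM (log2 fold change 0.78 ± 0.11, adjusted p = 0.00029) and the translation repressor Eif4ebp1 47.6 and 45.2 CPM and 105 and 98.4 CPM (log2 fold change 1.13 ± 0.14, adjusted p = 7.71e-05). Mitochondrial ribosomal proteins had 3 of 74 higher and 6 lower, ribosome biogenesis genes 2 of 44 and 1, aminoacyl-tRNA synthetases 2 of 22 and 1, and spliceosome genes 0 of 47 and 6. Of 14 abundant noncoding RNAs 2 were higher and 2 lower. Malat1, a nuclear RNA, had 2443 and 2005 CPM in naive mice, 1193 and 1184 CPM at 1 week and 1839 and 1609 CPM at 3 weeks (log2 fold change 0.54 ± 0.12, adjusted p = 0.00749). Malat1 lost its call in 4 of the 16 alternatives (adjusted p up to 0.0869).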

How the data were processed

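Ly6G+ bone marrow cells of naive, one-week and three-week LL2 mice (2 libraries each) were sequenced from total RNA with single-end reads. The authors assigned reads to the Ensembl transcriptome of mm10 with RSEM and Bowtie2 and deposited estimated counts (expected counts) per gene as whole numbers. The submitters' processing notes name RSEM 1.2.31, the methods another version. The paper gives more samples per group than the labels, which were followed here. Mitochondrial DNA genes were not analysed here.

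Counts were tested as deposited with edgeR 4.0.16 in R 4.3.3 (filterByExpr, TMM, glmQLFit and glmQLFTest) in one model of the 6 libraries, with Benjamini-Hochberg adjustment over 12259 genes. Symbols came from GENCODE M21 (37570 of 38887 identifiers) and promoters from RefSeq (GRCm38.p6). The scripts were tested on simulated data with 195 tested genes changed 2-fold between the weeks. There edgeR called 131 genes and recovered 118 of the 195, and DESeq2 called 110 and recovered 104. With no gene changed, edgeR called 1 gene and DESeq2 0. Alternatives were DESeq2 1.42.0, other scalings, filters, sets of libraries and genes, an offset for gene length and GC content, a replicate block, a stricter threshold and leaving out each library.

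The comparison and its gene lists were chosen with earlier results of these data known. Lists are described by counts and medians, without a test. Each count is to be read beside the 12.9% higher and 9.57% lower among all tested genes. Genes named were the 12 largest rises and falls at 5 CPM or more among protein-coding called genes without overlap, the 10 called genes of highest CPM, up to 5 called members per list with the smallest adjusted p, members that define a list by their role, the 5 highest genes in each direction at or below 3 counts in the other week, and Slc2a1, Slc2a3, Cxcr1, Cxcr2, Panx1, P2rx1, P2ry1, P2ry2 and Hif1a, which the study measured otherwise. Further genes are named in some places where a count of 5 or fewer is given, and the members behind such counts are not always listed in full. A few genes that the rule names are not reported here. Limits at 3 counts and the bounds set against them cover counting error only, whereas the SE, like the p-values, include the spread between libraries.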

Additional observations from a re-analysis of the deposited data

Results flagged for a closer look

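Genes drew attention when the tumor mice lay on opposite sides of the naive mice at the 2 time points. Each of the genes that follow was called at 1 week against naive mice, at 3 weeks against naive mice in the other direction, and between the weeks. The contrast of the weeks was part of this selection, so its log2 fold change is given as a description and not as a further test. The comparisons with naive mice share the naive libraries and are set side by side only. Of the 12259 tested genes 47 met this description, 9 of them above naive mice at 1 week and 38 below, and 13 are named in the text.

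Among those above naive mice at 1 week and below at 3 weeks, Prss34 had log2 fold changes against naive mice of 1.51 and then -1.93, with a difference between the weeks of -3.45. Mcpt8, the other basophil protease, had 1.50 and -1.26, with a difference of -2.76. Both basophil genes were therefore raised early and low late. The acute-phase gene Orm1 had 0.67 and -1.54 (difference -2.22), Lyz2, of lysozyme, had 0.63 and -1.27 (difference -1.91), and Ube2c, which acts in mitosis, had 0.42 and -0.49 (difference -0.91).

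The other 8 named genes took the other course, below naive mice at 1 week and above them at 3 weeks. Of signalling genes, Stat3 had -0.48 and 0.41 against naive mice (difference between the weeks 0.89), the AP-1 subunit Junb -0.40 and 0.36 (difference 0.77), the inhibitory receptor Siglece -0.58 and 0.49 (difference 1.07) and the glucocorticoid-induced Klf9 -0.63 and 0.97 (difference 1.60). Of lipid genes, Plin2 had -0.54 and 0.48 (difference 1.03) and Cpt1a -0.59 and 0.64 (difference 1.23). The actin nucleation gene Arpc3 had -0.40 and 0.42 (difference 0.82), and the ribosomal Rps27a -0.74 and 0.58 (difference 1.32).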

How the results depend on the processing

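The count of 2759 called genes became 1481 at an adjusted p under 0.01 (926 higher and 555 lower). With library size alone it was 2992, split into 856 higher and 2136 lower. DESeq2 on the 4 libraries of the 2 weeks called 2105, of which 781 were lower and 66 lower by over 5-fold, and without a filter 175 were lower by over 5-fold. Other alternatives that kept all libraries stayed within 1.5 times of these counts. With one library left out the total lay between 1452 and 2742, the higher genes between 824 and 1579, the lower genes between 628 and 1249 and those over 5-fold between 180 and 224. The total was 1694 without the first and 1452 without the second one-week library, and 1792 without the first three-week library. Replicate numbers did not pair the samples (correlations of deviations of 0.010, 0.036 and 0.038 between groups), and a replicate block gave 2709 calls, 1532 higher and 1177 lower.

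With one library left out, cell cycle genes had between 13 and 30 lower members, interferon-stimulated genes between 15 and 25, B-lineage markers between 16 and 20 and erythroid markers between 0 and 11. Higher members numbered between 6 and 9 in primary granules, between 9 and 13 both among cytokine receptors and in glycolysis, between 6 and 12 in cholesterol synthesis, between 5 and 19 in the endoplasmic reticulum list, between 2 and 11 among chemoattractant receptors, between 6 and 19 in the actin list, between 7 and 15 among lysosomal genes and between 2 and 9 in autophagy.

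With library size alone, medians turned to -0.0106 for NF-kappaB genes, -0.1213 for chemoattractant receptors, -0.0074 for actin, -0.0517 for immediate early genes, -0.0589 for the NADPH oxidase, -0.0058 for pentose phosphate genes, -0.0172 for iron handling, -0.0140 for ribosomal proteins, -0.0102 for translation factors, -0.0647 for the proteasome, -0.0692 for lysosomal genes and -0.1349 for noncoding RNAs, and so did the uncalled genes H2-D1 (-0.1583), Il1b (-0.0184), Mmp8 (-0.0704) and Ncf1 (-0.0722). With one library left out, medians that turned lay between -0.0568 (without the first one-week library) and 0.2799 for chemoattractant receptors, between -0.1900 and 0.0339 (without the second three-week library) for antioxidant genes, and between -0.0687 and 0.0668 for noncoding RNAs, which were at -0.0493 without the second three-week library. Of uncalled genes that turned, Cybb lay between -0.1481 and 0.1113, H2-D1 between -0.0941 and 0.1277, Il1b between -0.4769 and 0.6273, P2rx1 between -0.0017 and 0.7670 and Tlr2 between -0.0599 and 0.0543. The median of the 7 epithelial markers of -0.59 became 0.6737 with DESeq2 and 0.6731 with edgeR on 4 libraries. The causes were not tested.

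Of the 214 called genes named in the text, 180 were called under each of the 16 alternatives that tested them, 0 changed direction under any, and the others are given with their adjusted p in the report. With 2 libraries per group, small changes and genes at few counts could not be resolved.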

Other observations

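The report gives only a short list of noncoding RNAs, and the further classes and genes named here were chosen after their values were seen. Of 63 tested snoRNA genes, which guide the chemical modification of ribosomal RNA, 18 were higher and 1 lower at 3 weeks, with a median log2 fold change of 0.87 beside -0.02 over all tested genes. Snora30 had 123 and 85.6 CPM in naive mice, 37.5 and 36.5 CPM at 1 week and 96.3 and 97.4 CPM at 3 weeks (log2 fold change 1.39 ± 0.16, adjusted p = 4.71e-05), and Snora81 19.6 and 13.8 CPM, 3.34 and 5.3 CPM and 11.8 and 18.7 CPM (log2 fold change 1.83 ± 0.28, adjusted p = 0.000463). In both, the one-week libraries were the lowest of the 6, and those of 3 weeks lay near the naive libraries.

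Of 40 tested snRNA genes, most of them copies of the spliceosomal RNAs, 1 was higher and 10 lower, with a median of -1.10. Rnu11, of the minor spliceosome, had 12.4 and 19.8 CPM at 1 week and 6.9 and 7.84 CPM at 3 weeks (log2 fold change -1.12 ± 0.23, adjusted p = 0.00352), against 12 and 14.9 CPM in naive mice. Rnu2-10, a U2 gene with 57.1 and 64.2 CPM and 25.8 and 28.7 CPM, had the same counts in every library as other copies of U2, so the calls of these copies are not separate measurements. Long intergenic RNAs had 6 of 249 higher and 24 lower, and antisense transcripts 7 of 212 higher and 25 lower. For antisense transcripts, whether counting used the strand was not given in the sources used here. Many of these RNAs are shorter than the fragments of a library for long RNA, and the part of fragment selection in their values was not tested.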
